A study of Homo sapiens with 6 samples.

Results

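Glycolysis splits glucose into pyruvate in the cytosol and yields ATP. Glucose enters through facilitative transporters such as GLUT1, hexokinase traps it by adding a phosphate, phosphofructokinase commits it to the pathway, and the lower steps run from aldolase to pyruvate kinase. Lactate dehydrogenase then turns pyruvate into lactate and restores the NAD+ that the pathway uses, and leukaemia cells are known to draw heavily on this route. Of 23858 listed genes, 10 were taken by their symbol, and each symbol matched 1 row: the transporter SLC2A1, the hexokinases HK1 and HK2, the phosphofructokinases PFKL and PFKP, the aldolase ALDOA, the phosphoglycerate kinase PGK1, the enolase ENO1, the pyruvate kinase PKM and the lactate dehydrogenase LDHA.

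RNA came from NB4, a cell line of human acute promyelocytic leukaemia known for its PML-RARA fusion. The 3 ATO libraries are from NB4 cells given arsenic trioxide for 6 h, a drug that leads to loss of the fusion protein, and the 3 control libraries from the same line without it. The dose and what the control cells received are not given in the sources used here. Levels are RPKM, a read number divided by exon length and by library size, so genes can be compared per length. No protein, metabolite or flux was measured, and in bulk RNA fewer cells of a type and less RNA per cell cannot be told apart. Nothing says that the replicates were separate cultures, so the spread behind each p-value is that between these libraries and may be technical.

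Reads in listed genes came to 19350506 to 22597714 per library. The 10 genes held 158 to 31004 reads each per library, and a floor of 3 reads per library, which covers counting error only, stands at 0.133 to 0.155 RPKM for 1 kb of exon. The first principal component separated the groups, and the second, with 15.2% of the variance, set ATO replicate 3 (-23.0) and control replicate 1 (-21.3) apart from the other 4 libraries (6.85 to 14.8). Of 6 promyelocyte markers 5 were listed, with a summed level of 666 to 1006 RPKM in ATO and 998 to 1389 RPKM in control libraries, and ELANE was not analysed here. AZU1, a granule protein of these cells, was the marker of the 5 that limma-trend called, at 25.1 ± 2.98 RPKM in ATO and 50.5 ± 6.80 RPKM in control libraries (SD, n = 3 each). MPO (677 RPKM in ATO, 940 RPKM in control libraries) and CD33 (13.3 and 15.7 RPKM) were also lower without overlap, while PRTN3 and CTSG overlapped. Thus 1 of the 5 was called and 3 did not overlap. Of all tested genes, limma-trend called 25.4%, and 44.6% did not overlap between groups. With 5 markers these counts do not set them apart from the rest. The authors' deposited table has an adjusted p under 0.05 for AZU1, MPO and CD33, against 29.3% of tested genes. Among markers of other lineages, 1 of 5 T cell, 2 of 4 B cell, 1 of 5 erythroid, 0 of 5 fibroblast and 2 of 5 epithelial genes were listed, with summed levels of at most 7.12 RPKM in any library. The part of these promyelocyte markers in the results below was not tested.

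HK2 fell to 0.446 of its control level, LDHA and PFKP fell by smaller steps, and HK1, at a level far below that of HK2, rose. These were 4 of the 10 genes (adjusted p under 0.05, limma-trend with the Benjamini-Hochberg method over 16803 genes), 1 higher and 3 lower, where 25.4% of all tested genes were called, 12.0% of tested genes higher and 13.4% lower. The median log2 fold change of the 10 was -0.035, against -0.0033 for all tested genes. In these 4 and in SLC2A1 and PKM, thus in 6 of the 10, every ATO library lay on one side of every control library, as was so for 44.6% of tested genes. Limma-voom on recovered reads called 6 of the 10, SLC2A1 and PKM being added, where it called 31.2% of tested genes. With so few genes, these shares describe the list and do not set it apart from the rest. The authors' deposited table also has an adjusted p under 0.05 for HK2, HK1, LDHA and PFKP alone of the 10, against 29.3% of tested genes. In the authors' deposited table the log2 fold change is -1.18 for HK2, 0.74 for HK1, -0.38 for LDHA and -0.31 for PFKP.

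**Figure D1:**
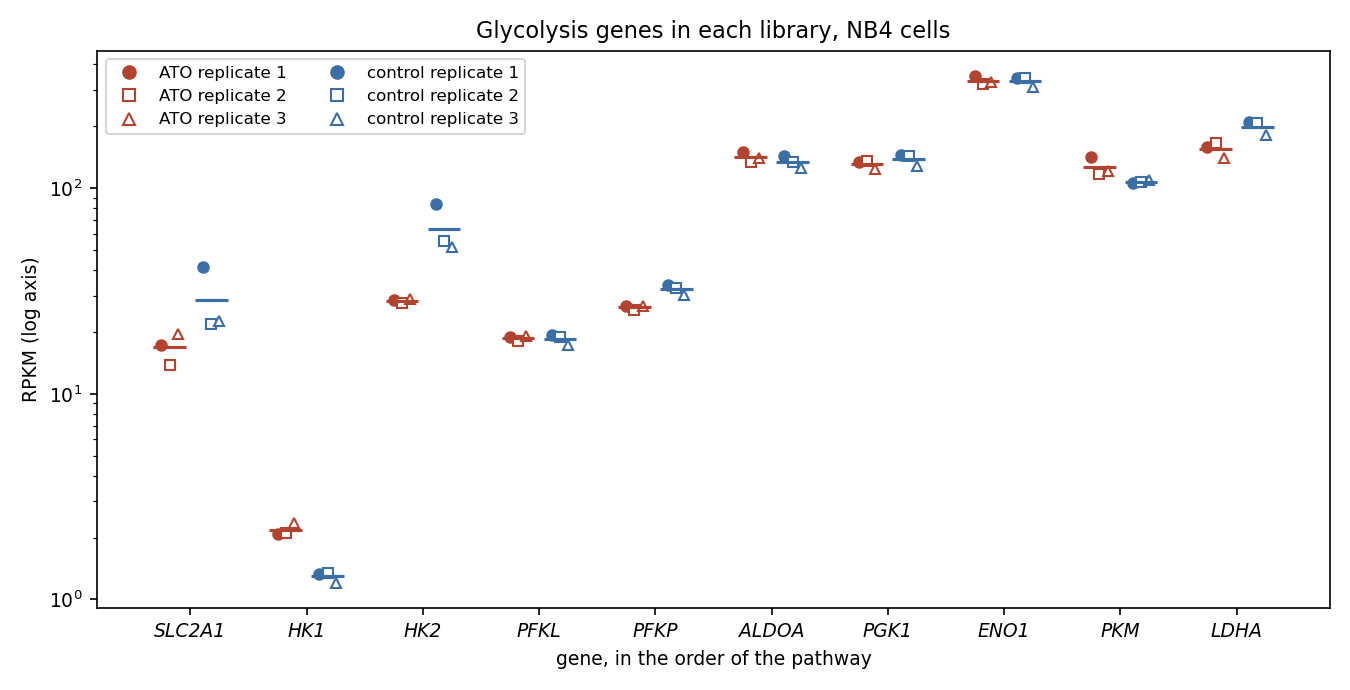
RPKM of the 10 glycolysis genes (log axis) in each library, with ATO to the left of control for every gene, 1 symbol per replicate and a line at the group mean (n = 3 each). HK2 lies at 27.5 to 28.9 RPKM in all ATO libraries and at 51.8 to 83.4 RPKM in control libraries, while ENO1, ALDOA, PGK1 and PFKL overlap.

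The genes spanned a wide range of levels. ENO1 was the highest, the 43rd of all listed genes by mean RPKM, and HK1 the lowest, the 14422nd. In ATO libraries the order by mean RPKM was ENO1, LDHA, ALDOA, PGK1, PKM, HK2, PFKP, PFKL, SLC2A1 and HK1. The ranges of LDHA and ALDOA, of ALDOA and PGK1, of PGK1 and PKM and of PFKL and SLC2A1 overlapped there, so those neighbours were not separated by their spread. In control libraries the order was ENO1, LDHA, PGK1, ALDOA, PKM, HK2, PFKP, SLC2A1, PFKL and HK1, where 2 pairs of neighbours overlapped, PGK1 with ALDOA and PFKP with SLC2A1. Both orders rest on the exon lengths behind the deposited values. These differ from GENCODE 29 most for ALDOA (6153 against 3916 bases) and ENO1 (3958 against 5276 bases). The levels of ALDOA and ENO1 relative to other genes thus depend on the annotation used. The summed level of the 10 genes was 951 to 1031 RPKM in ATO and 979 to 1126 RPKM in control libraries, and these ranges overlapped.

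SLC2A1, which encodes GLUT1, the transporter of basal glucose uptake (chromosome 1, 42925375 to 42959176, GRCh38), had 17.4, 13.8 and 19.5 RPKM in ATO replicates 1, 2 and 3, against 41.2, 22.0 and 22.6 RPKM in control replicates 1, 2 and 3. All ATO libraries were below all control libraries, and control replicate 1 stood far above the other controls. The log2 fold change was -0.68 ± 0.25 SE (95% interval -1.26 to -0.099), which did not pass the test (limma-trend adjusted p = 0.0844). Without control replicate 1 it was -0.39 (adjusted p = 0.105), and limma-voom on recovered reads called it (-0.71, adjusted p = 0.0167). SLC2A3, which encodes the high-affinity transporter GLUT3, had 15.1, 15.5 and 16.0 RPKM in ATO and 14.5, 8.45 and 9.26 RPKM in control libraries, again with control replicate 1 apart, and was not called either (0.53, limma-trend adjusted p = 0.0669), but limma-voom called it (0.58, adjusted p = 0.00894). Without control replicate 1 SLC2A3 was at 0.75 (adjusted p = 0.00486). Of the summed RPKM of these 2 transporters, SLC2A1 made up 51.8% ± 4.14 in ATO and 72.4% ± 1.55 in control libraries (SD, n = 3 each), and the ranges did not overlap.

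The largest log2 fold change of the 10 was at the hexokinase step. HK2, the inducible hexokinase that can bind mitochondria (chromosome 2, 74833981 to 74893359), had 28.6, 27.5 and 28.9 RPKM in ATO replicates 1, 2 and 3, against 83.4, 55.7 and 51.8 RPKM in control replicates 1, 2 and 3. The ATO libraries were close to each other and all below the controls, of which replicate 1 was highest. HK2 fell by 1.11 on the log2 scale (SE 0.17, limma-trend adjusted p = 0.00478), a ratio of group means of 0.446. The call held under all 13 alternatives run for this gene (log2 fold change -1.24 to -0.90), and without control replicate 1 it was -0.90 (adjusted p = 0.00187).

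HK1, the hexokinase found in most tissues (chromosome 10, 69269984 to 69401884), had 2.07, 2.11 and 2.35 RPKM in ATO and 1.33, 1.34 and 1.21 RPKM in control libraries. These values rest on 272 to 314 reads in ATO and 158 to 166 reads in control libraries, and the groups did not overlap. HK1 rose 1.69-fold in group means, with a log2 fold change of 0.47 ± 0.12 SE on the scale of RPKM + 1, which understates changes of low genes (limma-trend adjusted p = 0.0291). It was 0.71 with a pseudocount of 0.1 and 0.75 in limma-voom, and 0.19 with a pseudocount of 5. The call was lost without any 1 of the 6 libraries (adjusted p = 0.0637 to 0.0904), at log2 fold changes of 0.43 to 0.49. HK1 made up 7.14% ± 0.386 of the summed RPKM of HK1 and HK2 in ATO and 2.07% ± 0.435 in control libraries (SD, n = 3 each), and that sum was 30.5 ± 0.82 RPKM in ATO and 64.9 ± 17.3 RPKM in control libraries. HK3 was not analysed here.

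RefSeq (GRCh38.p14) gives 2 transcript starts for HK2, and the 300 bases around each (250 before, 50 after) are shown because HK2 had the largest change of the 10. Capitals mark CACGTG, the E-box bound by factors such as MYC, and ACGTG or GCGTG, the core bound by hypoxia-inducible factors, on either strand. Each CACGTG also holds ACGTG on both strands.
HK2 start 1 (chr2:74833877-74834176, + strand): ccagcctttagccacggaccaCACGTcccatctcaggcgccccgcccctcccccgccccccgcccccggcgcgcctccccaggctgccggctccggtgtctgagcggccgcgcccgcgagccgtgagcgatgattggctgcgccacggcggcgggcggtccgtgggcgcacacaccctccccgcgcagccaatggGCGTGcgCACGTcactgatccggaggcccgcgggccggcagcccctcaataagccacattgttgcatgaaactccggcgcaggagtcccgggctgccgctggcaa
HK2 start 2 (chr2:74834920-74835219, + strand): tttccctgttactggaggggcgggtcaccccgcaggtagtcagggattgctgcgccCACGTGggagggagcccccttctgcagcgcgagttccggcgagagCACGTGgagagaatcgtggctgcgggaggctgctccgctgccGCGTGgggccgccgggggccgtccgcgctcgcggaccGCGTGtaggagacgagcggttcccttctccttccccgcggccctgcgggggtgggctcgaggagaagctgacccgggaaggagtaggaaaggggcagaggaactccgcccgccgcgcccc
The window of start 1 holds 2 ACGTG and 1 GCGTG and 0 CACGTG. The window of start 2 holds 2 CACGTG, which give its 4 ACGTG, and 2 GCGTG. Over all 35116 RefSeq windows of this length, 7.26% hold CACGTG and 48.4% hold ACGTG or GCGTG. All 10 genes were found there, with 23 windows, some of which overlap, of which 3 hold CACGTG (1 each of HK2, ALDOA and LDHA) and 16 hold ACGTG or GCGTG. Of the 7 windows of HK1, 0 hold CACGTG and 2 hold GCGTG. Which start NB4 cells use and what binds there were not measured.

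**Figure D2:**
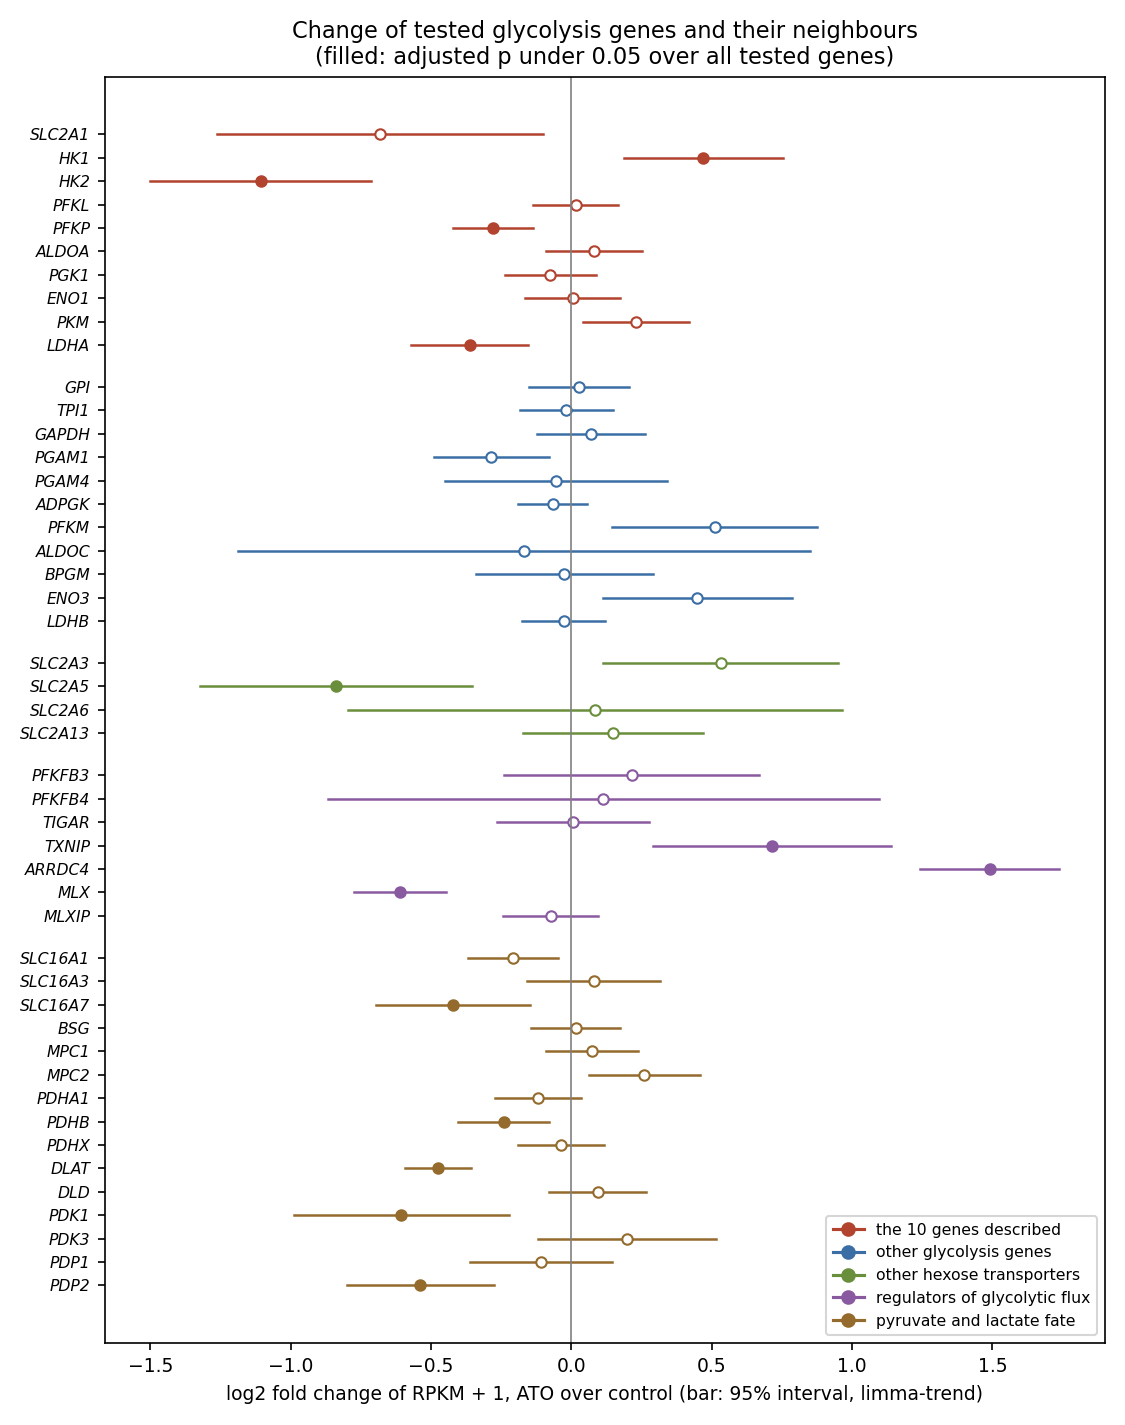
Log2 fold change of RPKM + 1, ATO over control, with its 95% interval from limma-trend (n = 3 each), for tested genes of glycolysis, hexose transport, flux regulation and pyruvate and lactate fate, with filled points for an adjusted p under 0.05. Among the 10 genes HK2 (-1.11) lies farthest below 0 and HK1 (0.47) farthest above, and ARRDC4 (1.49) is highest of the genes shown.

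Phosphofructokinase has 3 genes, named for platelet, liver and muscle. PFKP (chromosome 10, 3066333 to 3137712) had 26.8, 25.6 and 26.7 RPKM in ATO and 33.8, 32.6 and 30.3 RPKM in control libraries. The groups did not overlap, and PFKP fell by 0.28 on the log2 scale (SE 0.060, limma-trend adjusted p = 0.0166), though the call was lost without ATO replicate 2 (adjusted p = 0.0532) or control replicate 2 (0.0576). PFKL (chromosome 21, 44300051 to 44327376) had 18.8, 18.1 and 19.0 RPKM in ATO and 19.2, 18.9 and 17.3 RPKM in control libraries, which overlapped. Its log2 fold change was 0.015 (95% interval -0.14 to 0.17, limma-trend adjusted p = 0.881). PFKM was near the filter, at 1.58 ± 0.337 RPKM in ATO and 0.805 ± 0.165 RPKM in control libraries (SD, n = 3 each), and was not called (0.51, limma-trend adjusted p = 0.0504), but was in limma-voom (0.98, adjusted p = 0.0030). PFKP made up 56.6% ± 0.553 of the summed RPKM of these 3 genes in ATO and 62.6% ± 0.214 in control libraries, and PFKL 40.1% ± 0.103 in ATO and 35.9% ± 0.255 in control libraries (SD, n = 3 each). The size of these shares depends on the exon lengths used, 4836 bases for PFKP and 8926 for PFKL. Before division by length, PFKL had more reads than PFKP in every library.

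ALDOA, PGK1 and ENO1 act between phosphofructokinase and pyruvate kinase. ALDOA, which splits fructose bisphosphate (chromosome 16, 30064164 to 30070457), had 151, 135 and 141 RPKM in ATO and 144, 134 and 125 RPKM in control libraries. PGK1, the first step that makes ATP (chromosome X, 77910739 to 78129296), had 135, 136 and 124 RPKM in ATO and 145, 143 and 129 RPKM in control libraries. ENO1, the enolase of most tissues (chromosome 1, 8861000 to 8879250), had 351, 322 and 328 RPKM in ATO and 344, 346 and 310 RPKM in control libraries. In all 3 the groups overlapped, and none was called. The log2 fold changes were 0.082 for ALDOA (95% interval -0.088 to 0.25, limma-trend adjusted p = 0.442), -0.074 for PGK1 (-0.24 to 0.089, adjusted p = 0.468) and 0.0044 for ENO1 (-0.16 to 0.17, adjusted p = 0.970). The sign for ENO1 turned to -0.010 with median-ratio factors between libraries. In GENCODE 29, 42.3% of the ALDOA exon bases are shared with a protein-coding gene on the same strand, AC093512.2, and 13.3% with an antisense gene, AC093512.1, neither of them listed, so how its reads were counted is uncertain, while for the other 9 genes no neighbour shares more than 2.71%.

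PKM, the pyruvate kinase that makes ATP at the last step (chromosome 15, 72199029 to 72231822), had 142, 117 and 121 RPKM in ATO replicates 1, 2 and 3, against 106, 107 and 110 RPKM in control replicates 1, 2 and 3. All ATO libraries were above the controls and replicate 1 was highest, with a log2 fold change of 0.23 (95% interval 0.043 to 0.42) that did not pass the test (limma-trend adjusted p = 0.0740). Limma-voom called it at the same size (0.23, adjusted p = 0.0209), and without ATO replicate 1 it was 0.15 (limma-trend adjusted p = 0.132). The table counts genes, so the M1 and M2 splice forms of PKM were not told apart.

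LDHA, the lactate dehydrogenase subunit that favours lactate formation (chromosome 11, 18394388 to 18408425), had 158, 166 and 140 RPKM in ATO replicates 1, 2 and 3, against 209, 207 and 181 RPKM in control replicates 1, 2 and 3. The groups did not overlap, and replicate 3 was lowest in each. LDHA fell by 0.36 on the log2 scale (SE 0.088, limma-trend adjusted p = 0.0245), a ratio of group means of 0.777. The call was lost without ATO replicate 1 (adjusted p = 0.058) or 3 (0.0568) and without control replicate 1 (0.0699) or 2 (0.0805), at log2 fold changes of -0.38 to -0.29. LDHB, the other main subunit, had 288, 303 and 273 RPKM in ATO and 288, 298 and 294 RPKM in control libraries, which overlapped (-0.028, limma-trend adjusted p = 0.776). LDHA made up 34.9% ± 0.832 of the RPKM of both in ATO and 40.4% ± 2.04 in control libraries (SD, n = 3 each). The size of this share depends on the exon lengths used, 6210 bases for LDHA and 2983 for LDHB. Before division by length, LDHA had more reads than LDHB in every library.

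The window of the upstream LDHA start, the second of the called genes with a CACGTG in a RefSeq window, is shown beside that of ENO1, whose level changed least, with the same marks.
LDHA start 1 (chr11:18394313-18394612, + strand): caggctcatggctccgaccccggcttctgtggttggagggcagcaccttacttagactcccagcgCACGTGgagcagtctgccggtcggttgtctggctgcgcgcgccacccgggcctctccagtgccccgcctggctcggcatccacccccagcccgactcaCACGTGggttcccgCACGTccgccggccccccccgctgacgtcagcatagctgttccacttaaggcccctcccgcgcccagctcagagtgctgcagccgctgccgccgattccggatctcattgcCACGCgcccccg
ENO1 start 1 (chr1:8878637-8878936, - strand): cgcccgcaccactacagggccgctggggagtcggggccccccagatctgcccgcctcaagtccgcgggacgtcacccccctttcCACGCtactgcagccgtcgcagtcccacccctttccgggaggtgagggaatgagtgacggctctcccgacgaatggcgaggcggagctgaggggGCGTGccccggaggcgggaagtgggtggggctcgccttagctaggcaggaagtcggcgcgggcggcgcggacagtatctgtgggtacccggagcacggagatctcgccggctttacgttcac
The LDHA window holds 2 CACGTG, 5 ACGTG (4 of them within CACGTG) and 1 GCGTG. The ENO1 window holds 0 CACGTG and 2 GCGTG. ALDOA, which was not called, also has a window with 1 CACGTG. PFKP, which fell, has 0 CACGTG in its 4 windows, and the window of LDHA start 2 holds 0 as well.

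**Figure D3:**
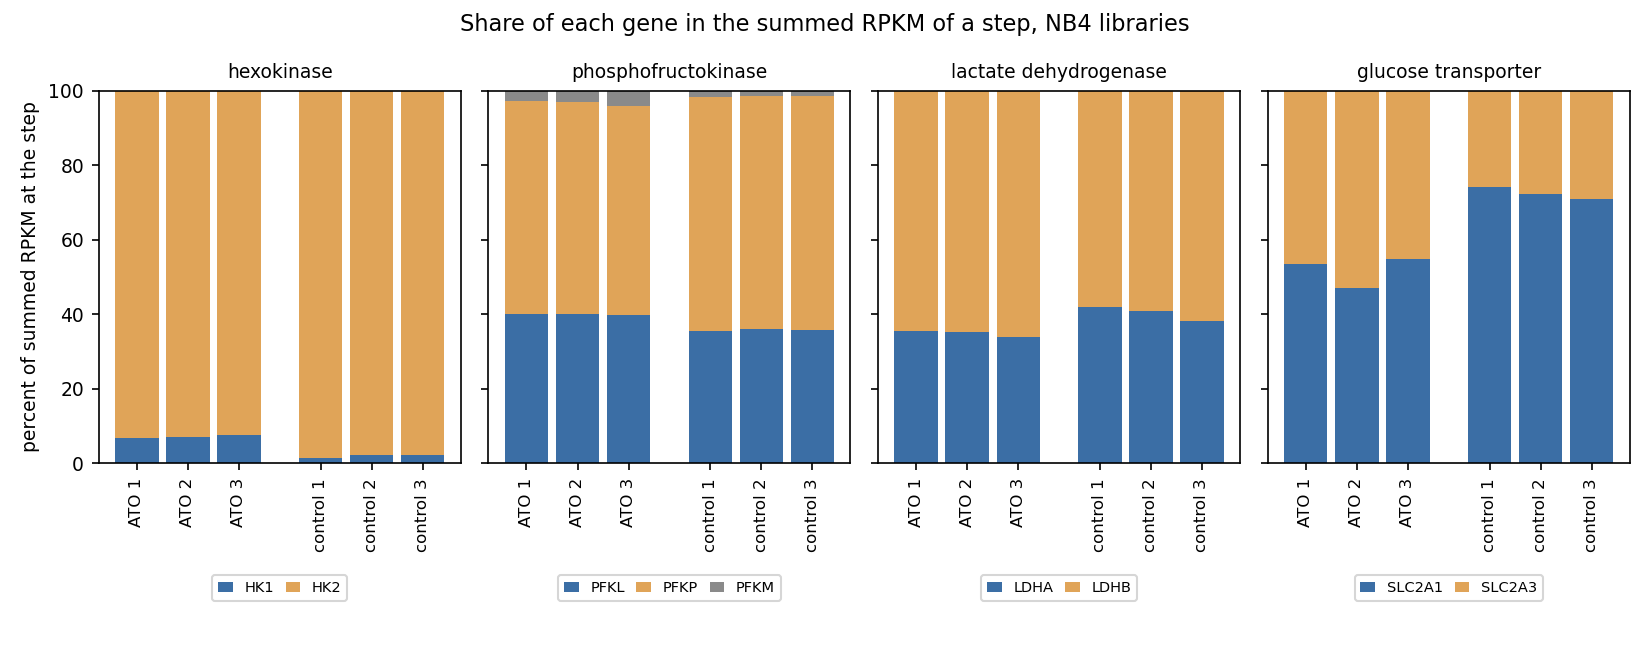
Share of each gene (stacked colours) in the summed RPKM of its step, in percent, with 1 bar per library and the 3 ATO libraries to the left of the 3 control libraries. The HK1 share is 6.76% to 7.53% in ATO and 1.57% to 2.36% in control libraries, and the SLC2A1 share is 47.1% to 54.9% in ATO and 70.9% to 74.0% in control libraries.

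Whether genes of the same step changed unequally was tested on the log2 ratio of their RPKM + 1 within each library, for 7 pairs, with an exact two-sided permutation test whose smallest p with 3 against 3 is 0.1. HK2 over HK1 was 3.21 ± 0.0569 in ATO and 4.79 ± 0.342 in control libraries (SD, n = 3 each), a difference of -1.58 (exact permutation p = 0.1). PFKP over PFKL was 0.48 ± 0.010 in ATO and 0.77 ± 0.0129 in control libraries, a difference of -0.30 (exact permutation p = 0.1). SLC2A1 over SLC2A3 differed by -1.21, PFKP over PFKM by -0.79 and LDHA over LDHB by -0.33 (exact permutation p = 0.1 each). In these 5 pairs the ATO libraries all lay below the control libraries, and the Benjamini-Hochberg value over the 7 pairs was 0.14, so none can pass at this size. ALDOA over ALDOC (0.25, exact permutation p = 0.7) and ENO1 over ENO2 (-0.45, exact permutation p = 0.4) overlapped between groups. Without control replicate 1 the ALDOA over ALDOC difference was -0.16. ALDOC had 2.45, 3.53 and 4.62 RPKM in ATO and 8.40, 3.86 and 1.72 RPKM in control libraries, and ENO2, which was below the filter, 0.545, 0.639 and 2.44 RPKM in ATO and 1.01, 0.290 and 0.310 RPKM in control libraries.

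The remaining glycolysis genes gave 0 calls among 11 tested of 21 (limma-trend), with a median log2 fold change of -0.025, and 3 of the 11 did not overlap between groups, against 25.4% called and 44.6% not overlapping among all tested genes. PGAM1, PFKM and ENO3 had an unadjusted p under 0.05 (limma-trend), a threshold at which the share of all tested genes was not computed. Limma-voom called 3 of the 11, where it called 31.2% of tested genes. The authors' deposited table has an adjusted p under 0.05 for PGAM1, PFKM and ENO3 alone of the 11, against 29.3% of tested genes. GPI, the isomerase after hexokinase, was at 35.0 ± 1.25 RPKM in ATO and 34.4 ± 3.18 RPKM in control libraries, and TPI1, the triose isomerase, at 260.2 ± 14.8 RPKM in ATO and 263 ± 13.9 RPKM in control libraries (SD, n = 3 each). GAPDH, the dehydrogenase that passes electrons to NAD+, was at 442 ± 27.8 RPKM in ATO and 421 ± 27.8 RPKM in control libraries. PGAM1, the mutase before enolase, had 123, 113 and 98.5 RPKM in ATO and 136, 141 and 129 RPKM in control libraries, all ATO libraries being lower (-0.29, limma-trend adjusted p = 0.0514), but it was called by limma-voom (-0.29, adjusted p = 0.0147) and without ATO replicate 1 (-0.36, limma-trend adjusted p = 0.0353). The muscle enolase ENO3 was at 1.63 ± 0.181 RPKM in ATO and 0.932 ± 0.193 RPKM in control libraries (0.45, limma-trend adjusted p = 0.0579), and limma-voom called it (0.83, adjusted p = 0.00907). ADPGK, BPGM and PGAM4 were at log2 fold changes of -0.067, -0.025 and -0.055 and were not called.

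Regulators of flux moved in part. Of 7 tested of 11, 2 rose and 1 fell (median log2 fold change 0.11), against 12.0% and 13.4% of all tested genes. ARRDC4, an arrestin family protein that lowers glucose uptake, had 7.63, 9.18 and 8.37 RPKM in ATO and 2.30, 2.41 and 2.30 RPKM in control libraries (1.49 ± 0.11 SE, limma-trend adjusted p = 0.000408). TXNIP, its relative that binds thioredoxin and draws glucose transporters off the cell surface, had 41.0, 54.7 and 32.4 RPKM in ATO and 26.8, 26.4 and 22.3 RPKM in control libraries (0.71 ± 0.18 SE, limma-trend adjusted p = 0.0273). The groups did not overlap in either gene, and the TXNIP call was lost without ATO replicate 1 (adjusted p = 0.0694) or any 1 control library (0.0558 to 0.0806). MLX, the partner of the glucose-sensing factor MondoA, fell to 12.7 ± 0.56 RPKM in ATO, against 20.0 ± 1.08 RPKM in control libraries (-0.61, limma-trend adjusted p = 0.00186), and MLXIP, which encodes MondoA, was at -0.073 (adjusted p = 0.489). PFKFB3 (0.22, limma-trend adjusted p = 0.447) and PFKFB4 (0.11, adjusted p = 0.865), which make the activator of phosphofructokinase, and TIGAR (0.0052, adjusted p = 0.979), which removes it, were not called. PFKFB4 had 1.53, 1.72 and 2.90 RPKM in ATO and 4.42, 1.18 and 0.797 RPKM in control libraries, with control replicate 1 and ATO replicate 3 the highest of their groups.

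Of 15 tested genes of pyruvate and lactate fate (of 18), 0 rose and 5 fell, against 12.0% and 13.4% of all tested genes, with a median log2 fold change of -0.11. DLAT, a subunit of the pyruvate dehydrogenase complex, fell to 30.7 ± 0.484 RPKM in ATO, against 43.1 ± 1.07 RPKM in control libraries (-0.48, limma-trend adjusted p = 0.00144). PDP2, which activates this complex, fell by 0.54 on the log2 scale (adjusted p = 0.0143), and PDK1, the kinase that shuts it off, had 4.41, 5.46 and 5.55 RPKM in ATO and 10.3, 8.42 and 6.59 RPKM in control libraries (-0.61, limma-trend adjusted p = 0.0338). The call of PDK1 was lost without any 1 library but control replicate 3, and that of SLC16A7 (-0.42, limma-trend adjusted p = 0.0365), a pyruvate and lactate carrier, without any 1 of the 6. PDHB, another subunit of the complex, named after its values were seen, was the remaining one (-0.24, limma-trend adjusted p = 0.0417), and its call was lost without any 1 library but control replicate 1. The lactate carriers SLC16A1 (-0.21, limma-trend adjusted p = 0.0648) and SLC16A3 (0.080, adjusted p = 0.594) were not called, though limma-voom called SLC16A1 at the same size (-0.21, adjusted p = 0.0374).

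In the pentose phosphate pathway, which branches off glycolysis, 4 of 7 tested genes (of 8) were higher and 1 was lower, against 12.0% and 13.4% of all tested genes, with a median log2 fold change of 0.28. PGD, which makes NADPH, had 192, 167 and 205 RPKM in ATO and 97.7, 93.0 and 99.2 RPKM in control libraries (0.95, limma-trend adjusted p = 0.000857). TALDO1 (0.37) and TKT (0.28), which return carbon to glycolysis, rose, and the isomerase RPIA fell (-0.42). The call of TKT was lost without control replicate 2 (adjusted p = 0.0511). Of the hexose transporters, 4 of 13 were tested, and SLC2A5, the fructose transporter, was the 1 that fell, with 3.26, 2.55 and 1.63 RPKM in ATO and 4.13, 5.69 and 5.61 RPKM in control libraries (-0.84, limma-trend adjusted p = 0.0255). That call was lost without ATO replicate 2 (adjusted p = 0.0608) or control replicate 2 (0.0789) or 3 (0.078), and SLC2A6 (0.086) and SLC2A13 (0.15) were not called. Of 6 genes of gluconeogenesis 2 were tested, and PCK2, the mitochondrial enzyme that makes phosphoenolpyruvate, rose to 22.7 ± 2.95 RPKM in ATO, against 11.2 ± 1.21 RPKM in control libraries (0.96, limma-trend adjusted p = 0.00245), while G6PC3 was at -0.26 (adjusted p = 0.0782) and was called by limma-voom (-0.29, adjusted p = 0.0481). With 4 tested hexose transporters and 2 tested genes of gluconeogenesis, 1 call each is not read against the 12.0% higher and 13.4% lower of all tested genes. Of 8 tested glycogen genes (of 11) 0 rose and 2 fell, the glycogen synthase GYS1 (-0.45) and PGM2 (-0.41), against 12.0% and 13.4% of all tested genes, and PGM1 (0.13) and UGP2 (-0.12) were not called.

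**Figure D4:**
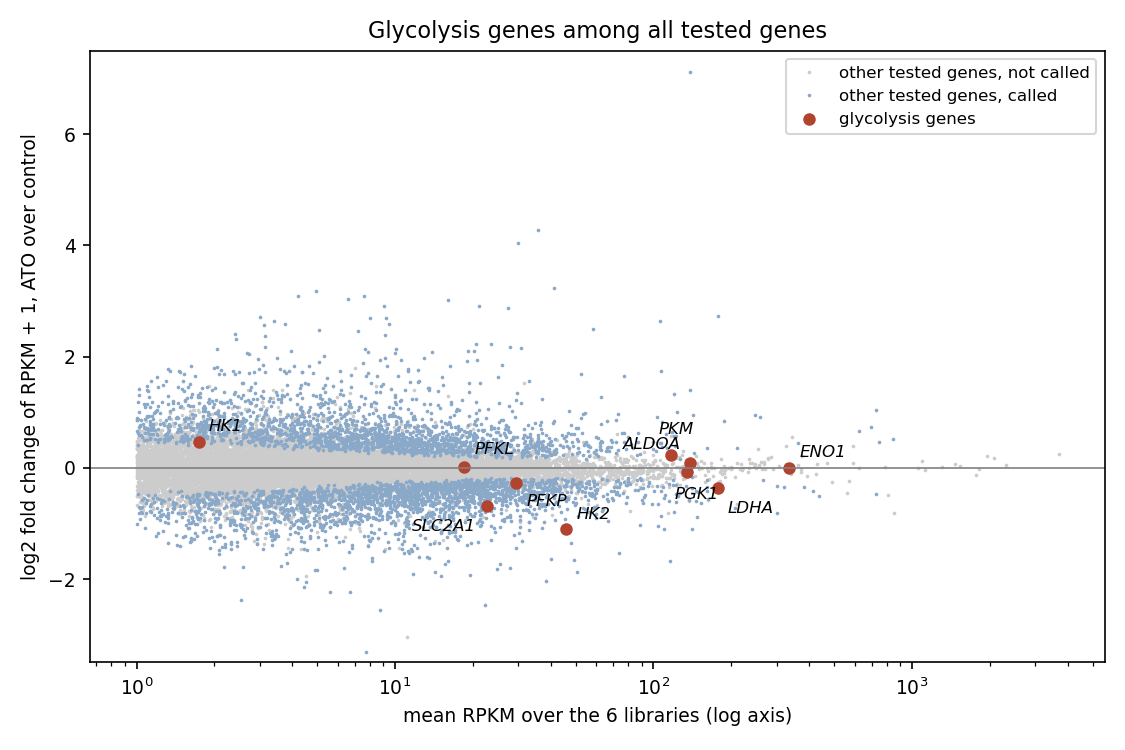
Log2 fold change of RPKM + 1, ATO over control, against mean RPKM over the 6 libraries (log axis) for all 16803 tested genes, with called genes in blue, uncalled genes in grey and the 10 glycolysis genes in red. HK2 lies at -1.11 and the 5 genes above 100 RPKM lie between -0.36 and 0.23.

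Processed pseudogenes resemble their parent genes and can share reads with them. Of pseudogenes named after the 10 genes, 5 were listed, 3 of LDHA and 1 each of PKM and HK2. LDHAP4 had 6.29 to 9.51 RPKM in ATO and 9.35 to 9.88 RPKM in control libraries, which overlapped. LDHAP2 had 1.10 to 2.31 RPKM in ATO and 4.22 to 5.56 RPKM in control libraries and fell (limma-trend adjusted p = 0.00589), and HK2P1, below the filter, had 0.180, 0.241 and 0.183 RPKM in ATO and 0.597, 0.321 and 0.372 RPKM in control libraries. Next to the parents at 140 to 209 RPKM (LDHA) and 27.5 to 83.4 RPKM (HK2) these levels are low, and the division of reads between them is uncertain.

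**Figure D5:**
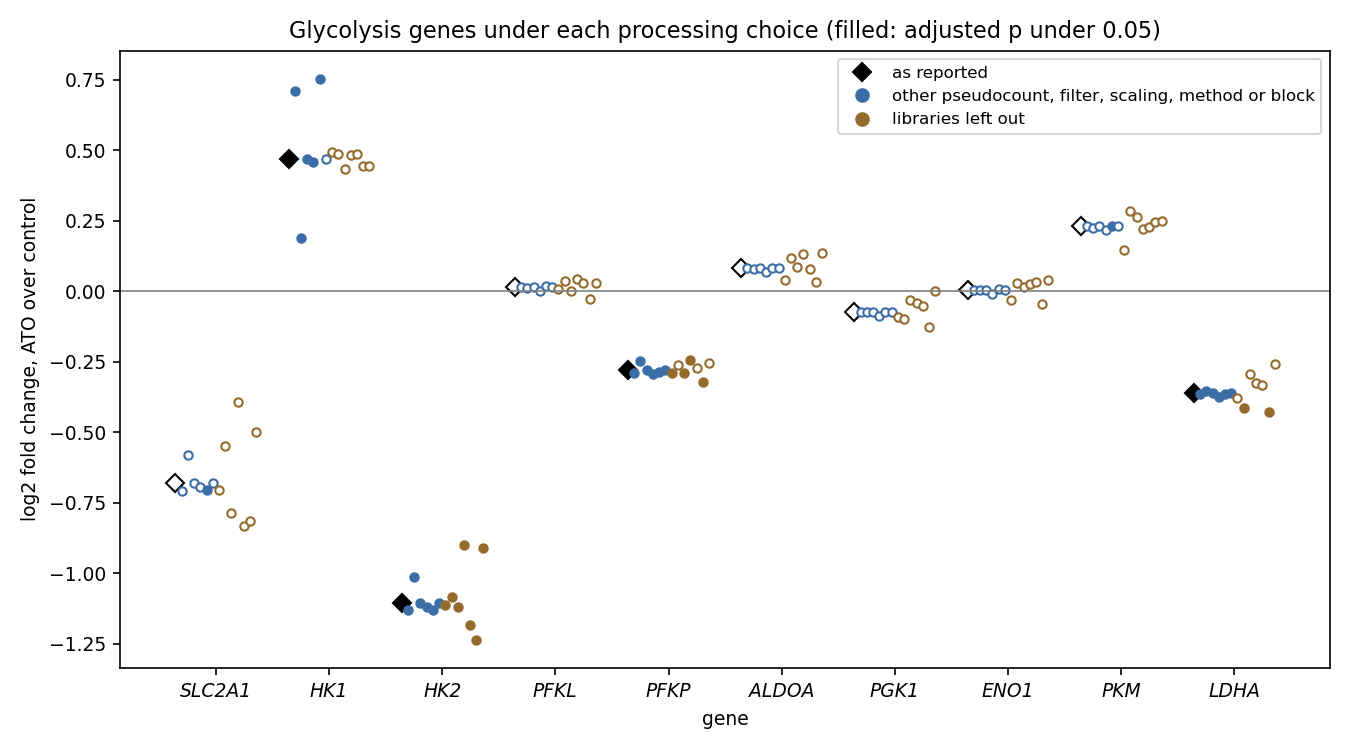
Log2 fold change, ATO over control, of the 10 glycolysis genes as reported (diamonds) and under 13 alternatives (circles), with filled symbols for an adjusted p under 0.05. HK2 is filled throughout, HK1 is open in all 7 fits that leave out libraries and in the blocked fit, and SLC2A1 ranges from -0.83 to -0.39.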

How the data were processed

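Ribosome-depleted total RNA of 6 NB4 libraries was sequenced. Per the labels' protocols the NEBNext Ultra kit was used, whose libraries carry no strand information. HISAT2 2.1.0 is named in the submitters' processing notes, as are HTSeq, DESeq2 and hg38, without roles. Duplicate reads were removed, per the file headers. The authors deposited 1 value per gene and library, whose unit the header does not name, and which was taken as RPKM because GENCODE 29 exon lengths and a single total for each library turned all 6 values into whole reads (within 0.01) for 93.0% of genes. With lengths settled by the deposited mean signal this was 100.0%, and for 5 of the 10 genes the settled length differs from GENCODE 29. The deposited table also holds the authors' log2 fold change, test score and p-values. Gene coordinates are from GENCODE 29 (GRCh38), counted from 1.

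RPKM + 1 was put on the log2 scale and fitted in limma 3.58.1 (R 4.3.3) in trend mode, with no term besides treatment. A mean of 1 RPKM or more was required, which left 16803 genes and removed 7055. Genes were called at a Benjamini-Hochberg adjusted p under 0.05 over all of these. Alternatives were pseudocounts of 0.1 and 5, no filter, median-ratio factors, limma-voom on recovered reads, a replicate block, each library left out and, added after seeing the data, control replicate 1 and ATO replicate 3 left out together. The fit was also run on simulated reads, with the same dispersion for every gene and no structure among libraries. These data differ from that setting, so its outcome is not used here. The 10 genes and 7 other lists were chosen with earlier results of these data known. Named are the 10, a set of further genes fixed by name (HK3 not analysed here), and up to 4 more tested genes per list by smallest p, with PDHB added after its values were seen. Some genes of these lists are counted but not reported here by name.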

Additional observations from a re-analysis of the deposited data

How the results depend on the processing

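The counts for all genes, 2021 higher and 2252 lower after arsenic trioxide, were 1331 to 1525 and 1427 to 1908 with 1 library left out, and 1200 and 1484 without control replicate 1 and ATO replicate 3, an alternative chosen after seeing the data. Of the 10 glycolysis genes, 1 was higher and 3 were lower as reported. Without any 1 library, 0 were higher and 1 to 3 lower, and without control replicate 1 and ATO replicate 3, 0 were higher and 1, HK2, was lower. Limma-voom called 2 higher. With the replicate number as a block 0 were higher (HK1 limma-trend adjusted p = 0.0796), and the calls of SLC2A5, PDK1, SLC16A7 and PDHB were lost. Deviations of same-numbered libraries from their group means correlated at -0.085, 0.148 and -0.083 over tested genes. For ATO replicate 3 and control replicate 1 the correlation was 0.221. With 3 libraries per group, these values cannot tell whether same-numbered libraries were handled together. Fits with libraries left out have fewer samples by construction. Among 130 alternatives for the 10 genes, 107 kept direction and side of the threshold, 16 lost a call, 2 gained one and 5 turned sign. Each sign change was in a gene or ratio that was not called. Over the 7 fits with libraries left out, the log2 fold changes ran from -0.028 to 0.044 for PFKL, -0.13 to 0.00041 for PGK1, -0.046 to 0.039 for ENO1, -0.0098 to 0.10 for GPI, -0.064 to 0.020 for TPI1, -0.61 to 0.29 for ALDOC, -0.065 to 0.011 for LDHB, -0.20 to 0.60 for PFKFB4, -0.066 to 0.069 for TIGAR, -0.17 to 0.045 for PGAM4, -0.15 to 0.039 for BPGM and -0.30 to 0.36 for SLC2A6. The ALDOA over ALDOC difference ran from -0.16 to 0.64 with 1 library left out. With median-ratio factors ENO1 was at -0.010 and TIGAR at -0.0062. Without control replicate 1 and ATO replicate 3, ALDOC was at 0.12, PGAM4 at 0.019 and SLC2A6 at -0.027. The cause of these shifts was not tested. With 158 to 166 reads per control library, HK1 is the gene of the 10 whose precision depth limits most.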
